A study of Petromyzon marinus with 4 samples.

Results

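Cells with high MIOX RNA in sea lamprey (Petromyzon marinus) gonads were compared between a female transformer and larvae. MIOX encodes myo-inositol oxygenase, which starts the breakdown of inositol and is made mainly by kidney tubule cells in mammals. A barcode, the tag that stands for 1 captured cell, was a member if it had at least 250 genes, at least 5 MIOX counts, a MIOX level of at least 2000 CPM (a count scaled to the barcode's total over all features) and a total of at least 5 times the largest background. That background, 375 counts, was the highest among the 4 libraries of the median totals of barcodes ranked 40000 to 80000. Of 30598 barcodes past the count and gene minimum in the female library, 3675 were members, 12.01% (exact 95% binomial interval 11.65 to 12.38%, which covers counting error only). In larval library 1 there were 691 of 19654 (3.52%, 3.26 to 3.78%) and in larval library 2 there were 737 of 20592 (3.58%, 3.33 to 3.84%). The male transformer library had 0 of 40223, which allows a share of up to 0.00746% (3 counts of the total, not the exact interval, whose upper end is 0.00917%), and it enters no comparison here. In all, 5103 of 111067 barcodes were members.

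All libraries came from gonads of wild-caught, wildtype animals of unknown age, and no animal was treated. The female group was 1 library from a transformer, a lamprey that has gone through metamorphosis and whose sex was set. The larval group was 2 libraries of gonads that had not yet become ovary or testis. Gonads were taken apart with a kit made for neurons, a flow sorter enriched live cells, and PIPseq T20 3′ chemistry captured them. The labels call the 2 larval libraries biological replicates. How many animals went into a library is not stated in the sources used here. How far the spread between the larval libraries reflects animals or technique is thus not known. With 1 female library, stage, sex, animal and library cannot be told apart in any difference below.

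Proximal tubule cells take back what the kidney filter lets through. In mammals, cubilin (CUBN) with its partner amnionless (AMN) and megalin (LRP2) bind filtered proteins at the brush border, solute carriers move sugars, amino acids, sulfate and organic ions, and the sodium-potassium ATPase drives them. The same cells break down amino acids and inositol and make glucose. In lampreys the larval kidney is lost and a definitive kidney is formed around metamorphosis, and the gonad lies beside the kidneys in the body cavity. How such cells came to be in the gonad samples was not tested. Gene roles named below are those known in mammals.

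MIOX itself chose the cells and is given as a description. The median member had 5473 CPM of MIOX in the female library, against 11670 and 11979 in larval libraries 1 and 2. Barcodes just inside the rule, with 2000 to 2500 CPM, numbered 416, 66 and 37 in the same order, and those just outside, with 1500 to 2000 CPM, numbered 450, 60 and 72. Barcodes too small to be cells, ranked 40000 to 80000 by count and taken as a sample of free RNA (their CPM is unscaled), had 1865 CPM of MIOX in the female library and 753 and 650 for larval libraries 1 and 2. The female rule thus lay close to the female free RNA level. The female members were also spread over lower MIOX values, and that shift is examined again further on.

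The deposited tables held 288723418 counts in the female library and 239024376 and 268135961 in the larval ones, of which members held 51085910, 10375920 and 11463058. The median member had 13985 counts and 2541 genes in the female library, against 15998 and 2737 for larval library 1 and 16607 and 2761 for larval library 2. Other barcodes past the minimum had medians of 4352, 5331 and 5790 counts. Mitochondrial genes gave a median of 2.78%, 2.73% and 2.75% of a member's counts, and no member passed 20%. The doublet threshold was the 95th percentile of the scores of all barcodes past the minimum in the same library. Members at or over it made up 5.52%, 7.96% and 9.50%, which are not doublet rates. No barcode sequence was a member in more than 1 library, and at most 2 members of a library were past the minimum in another.

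Of the 25 tubule markers sought, 8 were in the feature list, MIOX included, and no marker was at 0 in any of the 3 libraries. CUBN stood at 513 scaled CPM (CPM over the named genes, divided by the TMM scaling factor) in the female members and at 318 and 325 in the larval members. With each barcode thinned to the count minimum, 54.3% of female members and 40.2% and 37.3% of larval members had a CUBN count, against 5.35%, 1.73% and 1.70% of the other barcodes. LRP2 stood at 48.8, 102 and 120 scaled CPM. By its share of barcodes with a count, CUBN set the members apart from the other barcodes in each library, and the tubule-like label was kept. PAX2, a transcription factor of the kidney lineage, stood at 38.5, 49.6 and 59.2 unscaled CPM, against 30.1, 29.3 and 23.7 CPM in free RNA. KCNJ1, a potassium channel of the distal tubule, was near 0 in every library (1.13, 2.07 and 2.00 scaled CPM).

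Counts were summed over the members of each library and tested gene by gene with edgeR's quasi-likelihood test. A gene was called where its Benjamini-Hochberg adjusted p was under 0.05 and its scaled CPM in the female library was at least 2-fold above, or at least 2-fold below, each larval library. The larval pair alone gives the spread, with 1 residual degree of freedom, and the female library is assumed to vary like them. The adjusted p alone passed for 7611 of 14625 genes (52%), and it therefore separates little, which is why the fold condition was added.

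By that rule 1896 of 14625 genes, 13.0%, were higher in the female members and 1517, 10.4%, were lower. The larval libraries hardly differed from each other: over 5156 genes with at least 100 counts in every library, their log2 ratio had an SD of 0.193 and 4 genes (0.0776%) lay 2-fold or more apart. Between the female library and larval library 1 the SD was 1.085 and 1513 genes (29.3%) lay that far apart, and against larval library 2 it was 1.08 and 1505 (29.2%). Scaling by library totals alone, in place of TMM (the trimmed mean of M-values, which centres the bulk of genes), moved every log2 fold change by −0.28 and turned the split round. It gave 1256 genes higher and 2210 lower, so that 36.2% of the calls were higher in place of 55.6%. The sign of a change smaller than that shift depends on the scaling. The median log2 fold change of all tested genes was 0.016. By fold alone, over 15368 genes with at least 20 counts in a library, 1965 (12.8%) lay at least 2-fold above both larval libraries and 1424 (9.27%) at least 2-fold below both, while 875 (5.69%) lay that far apart between the larval libraries.

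**Figure D1:**
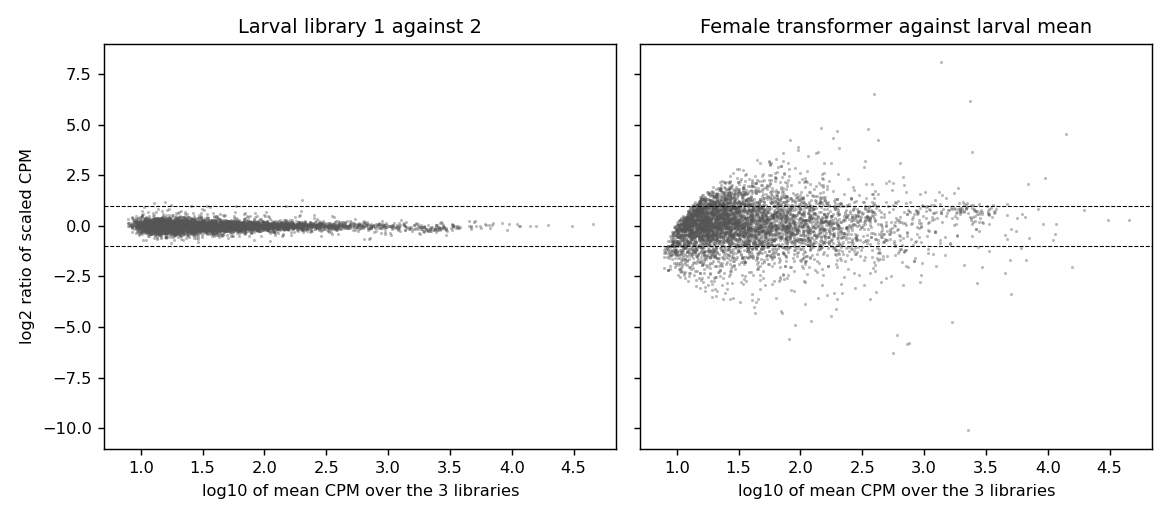
Log2 ratio of scaled CPM (vertical axis) against log10 of the mean CPM (horizontal axis) for genes with enough counts in every library, with the larval libraries against each other on the left and the female transformer against the larval mean on the right. Each point is a gene and the dashed lines mark 2-fold. The larval pair stays within 2-fold for all but 4 of 5156 genes, while the female points spread over several log2 units on both sides.

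A set of 58 genes was at least 10-fold higher in the female members, above 20 scaled CPM there and above the free RNA level, and 48 were as far below. The largest rise among genes with a symbol was that of SLC41A2, a magnesium transporter. It stood at 4051 scaled CPM in the female members, against 13.7 in larval library 1 and 16.0 in larval library 2 (log2 fold change 8.09 ± 0.12, SE). In thinned barcodes 84.9% of female members had a SLC41A2 count, against 1.74% and 3.94% of larval members. Other female barcodes had one in 17.2%, and female free RNA held 1451 CPM. The groups did not come near each other. Summed over all female members, the level (3553 unscaled CPM) exceeded that of female free RNA. Among female members with at least 10000 CPM of MIOX it was 1385 scaled CPM, and lower unscaled, which is below female free RNA.

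The opposite end was held by BLVRA, biliverdin reductase, which makes bilirubin from biliverdin. It stood at 3.08 scaled CPM in the female members and at 3369 and 3444 in the larval members, a log2 fold change of −10.11 ± 0.18. A BLVRA count was found in 0.517% of thinned female members, below the 3.73% of other female barcodes, and in 92.5% and 91.2% of larval members. BLVRA RNA was thus found in most larval members and was no more frequent in female members than in other female barcodes. SLC13A1 (LOC116945572), the sodium-sulfate cotransporter of the tubule, stood at 93.1 scaled CPM in the female members against 2556 and 2427, a log2 fold change of −4.74 ± 0.13. A count of it was found in 11.6% of thinned female members and in 87.8% and 86.7% of larval members.

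KMO, kynurenine 3-monooxygenase of tryptophan breakdown, rose from 14.12 and 14.03 scaled CPM in the larval members to 411 in the female members (log2 4.87 ± 0.12). APOC3 (LOC116948127), an apolipoprotein, rose from 41.2 and 29.1 to 989 (log2 4.82), and TFPI2 (LOC116943891), a secreted protease inhibitor, from 60.3 and 60.9 to 1144 (log2 4.24). For TFPI2 the larval members lay below the larval free RNA level of 210 and 205 CPM. SLC33A1, the acetyl-CoA transporter, SLC29A4, a monoamine transporter, CYP7B1 (LOC116951268), an oxysterol hydroxylase, DHTKD1, an enzyme of lysine breakdown, BMPER, which binds bone morphogenetic proteins, and SNTG2, a syntrophin, had log2 fold changes between 4.29 and 4.78. They were present at 21.2 to 103 scaled CPM in the female members and at 0.593 to 5.73 in the larval ones. Their female levels lay above those of female free RNA. For CYP7B1, SLC29A4 and SNTG2 the larval members lay below larval free RNA, as for TFPI2.

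Among the falls, CDA, cytidine deaminase of pyrimidine salvage, stood at 0.740 scaled CPM in the female members and at 137 and 138 in the larval members (log2 −7.53 ± 0.19). CA14, a membrane-bound carbonic anhydrase (log2 −4.67), MDH1B (−4.84) and TMEM68 (−4.71) also fell. So did ENKUR (−4.31) and EFCAB2 (−4.12), known as parts of sperm tails and cilia, UNC45B (−3.87), a chaperone of muscle myosin, and NEBL (−3.66), an actin-binding protein of heart muscle. UNC45B stood at 10.7 scaled CPM in the female members against 156 and 157, and its larval level was far above that of larval free RNA, 11.6 and 12.03 CPM.

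**Figure D2:**
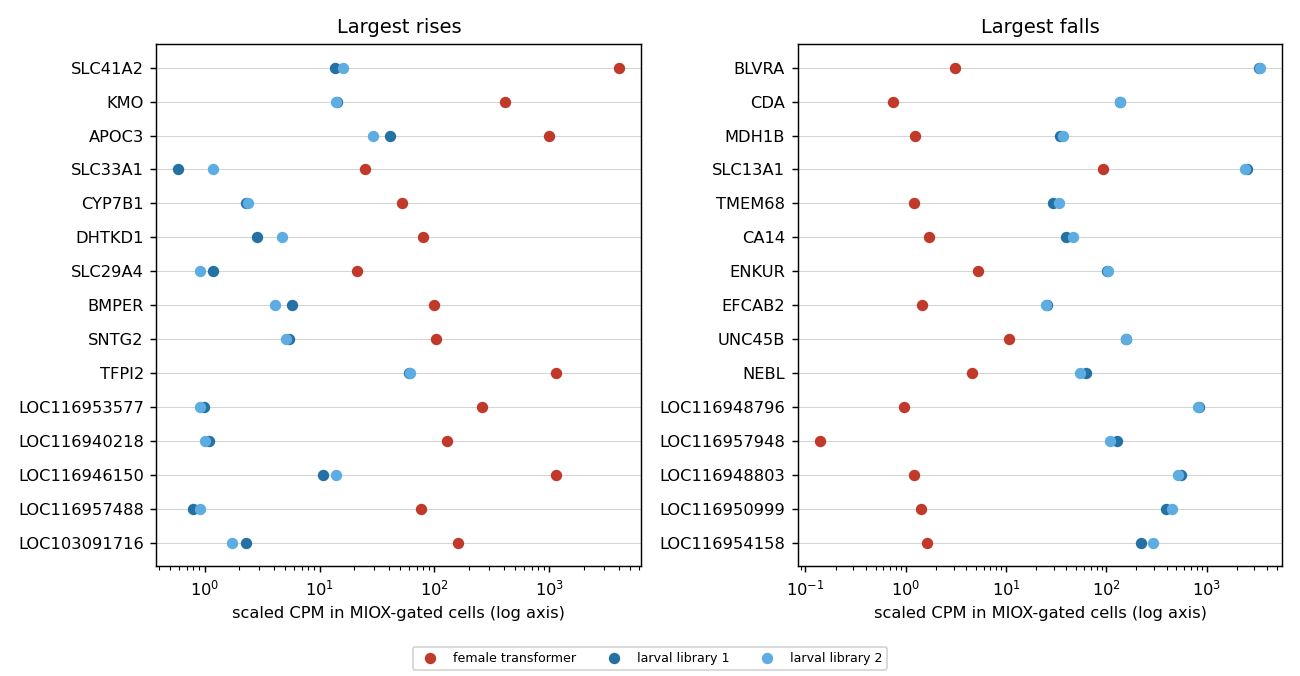
Scaled CPM on a log axis for the genes with the largest rises (left) and falls (right) in the female members, first those with a symbol and then those with a LOC number alone. Each point is 1 library, red for the female transformer and blue for the larval libraries. The larval points nearly coincide. SLC41A2 and BLVRA, at 4051 and 3.08 in the female library, have the largest rise and the largest fall among genes with a symbol.

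Several of the widest differences belong to genes that carry a LOC number alone, for which no name is given here. LOC116953577 stood at 259 scaled CPM in the female members and 0.988 and 0.911 in the larval ones (log2 8.08), and LOC116946150 at 1145, 10.8 and 14.03 (log2 6.53). LOC116940218, LOC116957488 and LOC103091716 had log2 fold changes of 6.93, 6.46 and 6.34. For these and for LOC116946150 the larval members lay below larval free RNA. On the other side, LOC116948796 stood at 0.972 in the female members and 839 and 812 in the larval ones (log2 −9.72), and LOC116948803 at 1.20, 552 and 520 (log2 −8.79). The gene table places these 2 side by side on chromosome 2, and they may share reads. LOC116957948, LOC116950999 and LOC116954158 had log2 fold changes of −9.68, −8.21 and −7.29. For these 5 falling genes the larval members stood above larval free RNA, and female free RNA held at most 1.75 CPM. The female members stood above female free RNA for LOC116948796, LOC116948803 and LOC116950999. They had 0.852, 1.055 and 1.258 unscaled CPM, against 0.638, 0.399 and 0.558 in free RNA. For LOC116957948 and LOC116954158 they stood below it.

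Of 8 genes of the endocytosis machinery tested, 1 rose (12.5%, against 13.0% of all genes) and 2 fell (25%, against 10.4%), with a median log2 fold change of −0.57 against 0.016 for all genes. CUBN had a log2 fold change of 0.67 ± 0.10 and was not called. LRP2 fell (log2 −1.18 ± 0.12), and AMN, at 5.44, 7.80 and 10.4 scaled CPM, was not called (log2 −0.75 ± 0.20). LRPAP1, the chaperone that escorts megalin through the secretory pathway, fell from 2829 and 2780 scaled CPM in the larval members to 746 in the female ones (log2 −1.91 ± 0.11). AP2M1, a subunit of the clathrin adaptor AP-2, rose from 35.7 and 36.7 to 139 (log2 1.94 ± 0.12). Among the receptors and their partner, LRP2 was thus the single call. That call was lost when members with at least 10000 CPM of MIOX were fitted alone (log2 −1.08). With the scaling factors of that fit LRP2 was not 2-fold below each larval library. With the factors of all members it just was, at 45.6 scaled CPM against 91.9 and 110. With a rule on CUBN and LRP2 in place of MIOX, AMN was called lower (log2 −1.49).

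Of 6 tubule transcription factors tested, 2 rose (33.3%, against 13.0% of all genes) and none fell (10.4% of all genes). LHX1, needed to form the nephric duct and tubules, rose from 20.2 and 23.3 scaled CPM to 50.7 (log2 1.22 ± 0.13). GRHL2 (LOC116946564), a factor of duct epithelium, rose from 6.12 and 4.83 to 16.5 (log2 1.59 ± 0.19), but its larval level lay below that of larval free RNA, 13.98 and 17.3 CPM. Both calls were lost among members with at least 10000 CPM of MIOX (log2 0.65 for LHX1 and 0.95 for GRHL2), and that of LHX1 also with library totals alone (0.94) and with the MIOX rule doubled (1.02). PAX2 had a log2 fold change of −0.21 ± 0.13 (edgeR adjusted p 0.15).

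Solute carriers made up the longest list. Of 129 tested, 25 rose (19.4%, against 13.0% of all genes) and 14 fell (10.9%, against 10.4%), and the median log2 fold change was 0.25, which became −0.04 with library totals alone. Carriers of the cell surface and of inner membranes were among the calls in both directions. Among the falls besides SLC13A1, SLC47A1, which exports organic cations into urine, fell from 295 and 277 scaled CPM to 23.0 (log2 −3.63 ± 0.13). SLC15A2, the peptide carrier of the proximal tubule, fell from 450 and 463 to 60.9 (log2 −2.90 ± 0.12). SLC2A9, a urate carrier, SLC6A8, the creatine carrier, SLC5A8 (LOC116956498), a sodium-coupled monocarboxylate carrier, SLC28A3, a nucleoside carrier, and the subunits SLC3A2 and SLC7A9 of amino acid exchangers had log2 fold changes between −1.81 and −1.07. The larval levels of all of these lay above larval free RNA. The mitochondrial carrier SLC25A15 (8.69 and 13.0 to 3.22, log2 −1.76) and the Golgi carrier SLC35B2 (29.6 and 26.0 to 10.7, log2 −1.37) also fell.

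Among the rises, SLC25A31 (LOC116942887), a mitochondrial ADP/ATP carrier, went from 3457 and 3332 scaled CPM to 14060 (log2 2.05 ± 0.10). SLC25A29 and SLC25A42, further mitochondrial carriers, rose by 2.95 and 2.11. SLC37A4, which brings glucose-6-phosphate into the endoplasmic reticulum, rose from 100 and 110 to 238 (log2 1.18). At the cell surface SLC4A11, a relative of borate transporters, rose from 7.51 and 6.83 to 54.0 (log2 2.92), SLC22A7, an organic anion carrier, from 1.09 and 1.46 to 3.63 (log2 1.502), and SLC6A5, a glycine carrier, from 3.16 and 3.92 to 8.98 (log2 1.34). SLC22A6 (LOC116947821), the organic anion carrier of the proximal tubule and a marker here, stood at 34.1, 14.4 and 19.0 and was not called, since it lay under 2-fold from larval library 2 (log2 1.03 ± 0.15). With a rule on CUBN and LRP2 in place of MIOX it was called higher (log2 1.92). The carriers named in these paragraphs beyond SLC41A2, SLC33A1, SLC29A4, SLC13A1, SLC47A1 and SLC22A6 were picked after their values were seen.

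Among ion transport genes, ATP1B1, the beta subunit of the sodium-potassium ATPase, rose from 429 and 434 scaled CPM to 998 (log2 1.21 ± 0.10), a call that was lost with library totals alone (0.93). The potassium channel KCNJ10 fell from 23.1 and 28.8 to 9.39 (log2 −1.47) and the water channel AQP11 (LOC116952539) from 5.73 and 9.65 to 1.18 (log2 −2.71). No other gene of the 17 tested in this list was called, so that 5.88% rose (13.0% of all genes) and 11.8% fell (10.4% of all genes). Of 11 vacuolar ATPase genes, 2 rose (18.2%, against 13.0% of all genes) and none fell. ATP6V0C went from 223 and 247 to 697 (log2 1.57) and ATP6AP2 from 68.2 and 66.0 to 172 (log2 1.36). The list's median was −0.32, and it became 0.35 with a rule on CUBN and LRP2 in place of MIOX.

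**Figure D3:**
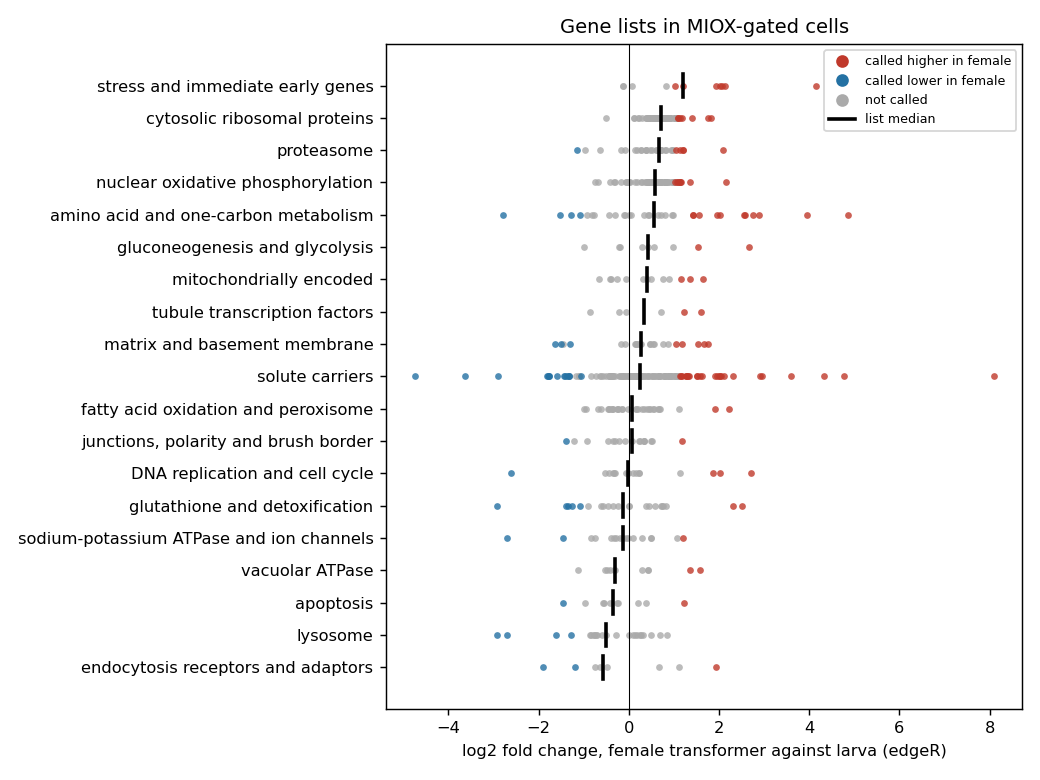
Log2 fold change of the female transformer against the larvae (horizontal axis, edgeR) for the members of each gene list (rows). Each point is a tested gene, coloured by its call, and the black bar is the list's median. Stress genes, ribosomal proteins and proteasome genes have the highest medians (1.21, 0.71 and 0.66), and endocytosis and lysosome genes have low ones (−0.57 and −0.50).

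Of 32 enzymes of amino acid breakdown and one-carbon metabolism tested, 11 rose (34.4%, against 13.0% of all genes) and 4 fell (12.5%, near the 10.4% of all genes), with a median of 0.55. The genes that take histidine to glutamate all rose, a grouping made after their values were seen. HAL (LOC116952320), the first enzyme, rose from 0.790 and 0.638 scaled CPM to 4.79 (log2 2.74 ± 0.35), UROC1 from 2.86 and 3.64 to 19.6 (log2 2.58), AMDHD1 from 3.46 and 4.37 to 60.4 (log2 3.94), and FTCD, the last, from 57.1 and 56.2 to 333 (log2 2.55 ± 0.11). In each of the 4 the larval libraries lay close together and far from the female library. HAL, however, lay under 5 scaled CPM in every library, and its larval values rest on few counts. Free RNA of the female library held 1.91, 5.66, 16.5 and 86.0 CPM of them, below the female members in each case.

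Of the kynurenine enzymes, KMO and KYNU (2.37 and 2.46 to 9.76 scaled CPM, log2 2.01) rose. TDO2, which opens the tryptophan ring, stood at 19.3 in the female members and 9.97 and 13.6 in the larval ones, and HAAO at 6.45, 3.85 and 5.74, and neither was called. In tyrosine breakdown, FAH (27.8 and 29.6 to 111, log2 1.95) rose, while HPD (log2 −0.81), HGD (0.65), GSTZ1 (0.45) and TAT (−0.77) were not called. ALDH4A1 of proline breakdown (log2 1.42) and the folate enzyme MTHFD1 (1.56) also rose.

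The falling enzymes of this list were CTH, SHMT1, AGXT2 and PIPOX. CTH, which makes cysteine from cystathionine, fell from 1274 and 1340 scaled CPM in the larval members to 188 in the female ones (log2 −2.79 ± 0.12). SHMT1, cytosolic serine hydroxymethyltransferase, fell from 74.95 and 81.2 to 27.3 (log2 −1.52), AGXT2 (LOC116955742), a mitochondrial aminotransferase, from 836 and 891 to 356 (log2 −1.28), and PIPOX, which oxidises pipecolic acid and sarcosine, from 73.1 and 75.3 to 35.2 (log2 −1.08). DAO, D-amino acid oxidase, an enzyme of proximal tubule peroxisomes, stood at 1056, 1283 and 1328 and was not called (log2 −0.31).

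**Figure D4:**
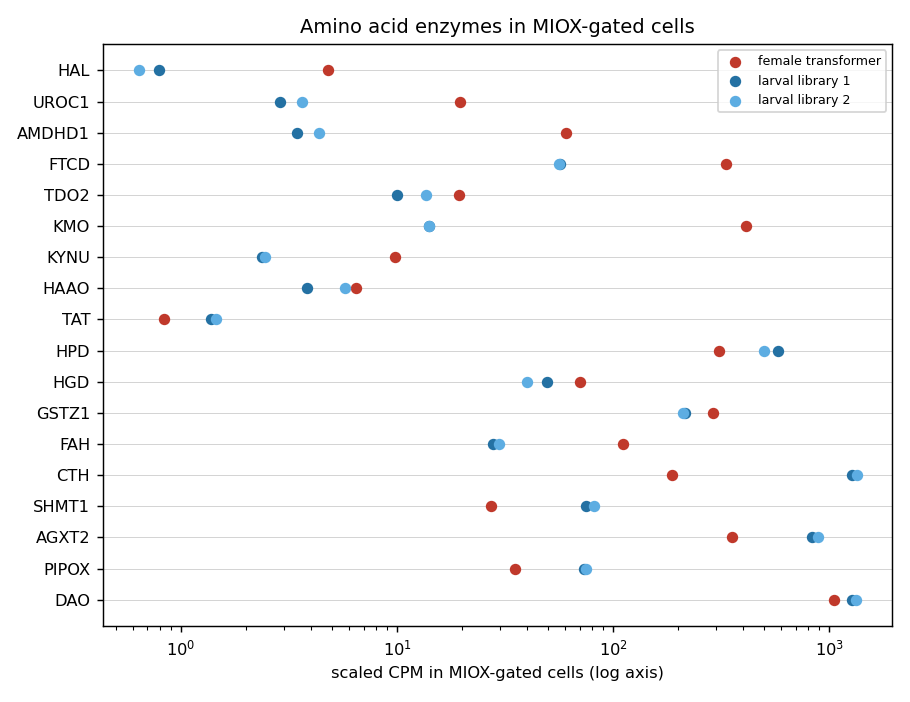
Scaled CPM on a log axis of enzymes of amino acid breakdown and one-carbon metabolism (rows). Each point is 1 library, red for the female transformer and blue for the larval libraries. The histidine enzymes HAL, UROC1, AMDHD1 and FTCD and the kynurenine enzyme KMO lie to the right in the female library, and CTH lies to the left (188 against 1274 and 1340).

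Of 9 genes of glucose production and glycolysis tested, 2 rose (22.2%, against 13.0% of all genes) and none fell. G6PC, which releases free glucose, stood at 976 scaled CPM in the female members and 1078 and 1190 in the larval ones (log2 −0.22 ± 0.10, edgeR adjusted p 0.068). PC, pyruvate carboxylase, rose from 50.6 and 60.3 to 161 (log2 1.54 ± 0.11), and DLAT (LOC116955939), a subunit of pyruvate dehydrogenase, from 2.67 and 1.91 to 14.5 (log2 2.67). Of 32 genes of fatty acid oxidation and peroxisomes, 2 rose (6.25%, against 13.0% of all genes) and none fell. They were HADHB (48.2 and 51.2 to 230, log2 2.21) and CPT2 (22.2 and 22.3 to 83.7, log2 1.91). HADHA, the partner subunit of HADHB in the mitochondrial trifunctional protein, stood at 151, 188 and 169 (log2 −0.25).

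Most genes of oxidative phosphorylation and of ribosomes had small positive fold changes. Of 61 nuclear genes of oxidative phosphorylation, 52 had a positive log2 fold change, with a median of 0.59, but 8 (13.1%) passed the rule, close to the 13.0% of all genes. They were led by ATP5F1D (48.3 and 51.3 to 221 scaled CPM, log2 2.15) and UQCRC2 (LOC116955098, 65.2 and 74.2 to 178, log2 1.35). Of the 13 mitochondrial genes 3 rose (23.1%, against 13.0% of all genes) and none fell. They were ND4 (1017 and 1018 to 3166, log2 1.64), ND2 (252 and 267 to 665, log2 1.36) and ND1 (log2 1.16). The larval levels of ND4 and ND2 lay below larval free RNA. COX1 (−0.40) and COX3 (−0.67) stood lower in the female members without a call. The calls of ND4 and ND2 were lost among members with at least 10000 CPM of MIOX (log2 0.94 and 0.94). Ribosomal protein genes were positive in 70 of 71, with a median of 0.71 (0.43 with library totals alone), and 7 (9.86%, against 13.0% of all genes) passed the rule. RPL6 (1.81) and RPL23A (1.75) led them. RPL6 lay below free RNA in the female library, at 81.9 against 91.3 unscaled CPM. RPL23A lay below free RNA in the larval libraries. The proteasome list had a median of 0.66 with 5 of 33 called higher (15.15%, against 13.0% of all genes). PSMD2 (28.2 and 26.3 to 117, log2 2.10) and PSMD7 (log2 1.20, 0.92 with library totals alone) led them. The larval level of PSMD7 lay below larval free RNA. The list's single fall was PSMC3IP, matched by its prefix, which is a recombination cofactor and not a proteasome subunit. PSMC3IP lay below free RNA in every library.

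Of 47 stress and immediate early genes sought by symbol, 11 were in the feature list, so the list covers a part of the class. Of the 11, all tested, 7 rose (63.6%, against 13.0% of all genes) and none fell, with a median of 1.21. HSPD1, the mitochondrial chaperonin, rose from 4.74 and 5.56 scaled CPM to 91.1 (log2 4.14 ± 0.15), and HSPE1, its partner and its neighbour on chromosome 19, from 222 and 240 to 1016 (log2 2.14 ± 0.10). The larval levels of both lay below larval free RNA. XBP1 (LOC116939140), HSPA5 and HSP90B1 of the endoplasmic reticulum rose by 2.07, 1.92 and 1.21. DUSP1, an immediate early gene that dissociation of tissue can raise, went from 7.11 and 7.83 to 30.3 (log2 2.02), below its free RNA level in every library. The largest member by level, HSPA8, stood at 11800, 6977 and 6383 and was not called (log2 0.82). Dissociation and sorting were labelled alike for all libraries, and their part in these values was not tested.

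Of 22 genes of glutathione metabolism and detoxification tested, 2 rose (9.09%, against 13.0% of all genes) and 5 fell (22.7%, against 10.4%). GSTO1 (LOC116945814, 21.3 and 24.1 to 129, log2 2.50) and GCLM, the modifier subunit of glutathione synthesis (42.4 and 46.5 to 221, log2 2.31), rose. The larval levels of both lay below larval free RNA. Among the falls were GSTT2B (LOC116939167, log2 −2.93), TXN, thioredoxin (1485 and 1496 to 567, log2 −1.40), and SOD2, the mitochondrial superoxide dismutase (519 and 485 to 237, log2 −1.08). GSTT2B lay below free RNA in every library. Of 23 lysosomal genes none rose and 4 fell (17.4%, against 10.4% of all genes), with a median of −0.50. ASAH1, acid ceramidase, fell from 36.6 and 28.1 to 4.28 (log2 −2.92), FUCA1, a fucosidase, from 21.7 and 21.7 to 3.35 (log2 −2.69), and CTSZ, a cathepsin, from 1126 and 1067 to 360 (log2 −1.61). The median of this list kept its sign under every setting tried.

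Of 23 basement membrane and matrix genes, 5 rose (21.7%, against 13.0% of all genes) and 3 fell (13.0%, against 10.4%). The laminins LAMA2 (7.21 and 8.74 to 27.0, log2 1.76), LAMC1 (57.1 and 59.8 to 187, log2 1.67) and LAMA5 (21.1 and 17.2 to 55.2, log2 1.53) and the basement membrane collagen COL4A6 (101 and 103 to 230, log2 1.17) were among them. LAMA5 and COL4A6 stood at least as high in free RNA, at 52.4 and 267 CPM in the female library. LAMA2 lay below free RNA in the larval libraries. ITGB1BP1, an integrin partner (log2 −1.64), and the collagens COL6A1 (−1.51) and COL6A2 (−1.31) fell, and both collagens lay below free RNA in every library. Of 17 junction and brush border genes, 1 rose (5.88%, against 13.0% of all genes) and 1 fell (5.88%, against 10.4%). PCDH15 rose from 29.6 and 33.1 to 70.9 (log2 1.18, 0.89 with library totals alone). CDHR2 (LOC116940289), the brush border protocadherin, fell from 268 and 286 to 106 (log2 −1.39). Villin (VIL1) was not called, at 24.6, 25.7 and 31.2.

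Of 17 replication and cell cycle genes, MCM5, PLK1 and CCNB2 rose (17.65%, against 13.0% of all genes) and TYMS fell (5.88%, against 10.4%). MCM5 stood at 26.3 scaled CPM in the female members and 5.33 and 2.73 in the larval ones (log2 2.72), with its larval values below free RNA (28.9 and 27.7 CPM). PLK1, at 1.37, 0.494 and 0.182, and CCNB2, at 17.7, 4.35 and 5.37, lay below free RNA in every library. So did TYMS, at 0.925, 4.84 and 6.47. Among 10 apoptosis genes, DIABLO rose (log2 1.22, 0.94 with library totals alone), 10% against 13.0% of all genes. CDKN1B fell (log2 −1.46), 10% against 10.4%, and lay below free RNA in every library. None of 4 hormone receptors and enzymes tested was called. NR3C2, the mineralocorticoid receptor, stood at 31.9, 29.5 and 27.0 (log2 0.18 ± 0.14).

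Summed markers of the other cell types sought lay below their free RNA level in the members of every library, with sums scaled in the members and unscaled in free RNA. The 4 endothelial markers found summed to 16.6 scaled CPM in the female members and 15.7 and 15.1 in the larval ones, against 58.8, 43.3 and 35.7 CPM in free RNA, and none was called. The 6 stromal markers summed to 103, 157 and 134 against 798, 1247 and 1186 in free RNA, and 3 fell (50%, against 10.4% of all genes). COL6A1 was among them, and its call was lost in 4 other settings. The 18 germ cell markers found summed to 44.4, 80.1 and 79.0 against 142, 233 and 225. Of the 14 tested none rose and 4 fell (28.6%, against 10.4% of all genes), among them SPO11 at 4.21, 18.5 and 21.0 scaled CPM. A further 5 genes, which an earlier description of these data found abundant in oocyte-like cells, summed to 122, 57.3 and 38.3 scaled CPM, against 1313, 1346 and 1263 CPM in free RNA. All 5 had a positive log2 fold change and 2 were called higher (40%, against 13.0% of all genes), LOC116947083 (8.89 and 5.92 to 37.3, log2 2.34) and LOC116947082 (18.1 and 12.02 to 38.3, log2 1.35). Their part in the other differences was not tested. The podocyte marker WT1 (LOC116939910) stood at 1.18, 1.78 and 1.82. TAL1, the single blood marker found, had 30 counts in the female members and 1 and 7 in the larval ones. None of these markers was at 0 in every library.

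Free RNA moved with some of the calls. A group of 11 genes on chromosome 43, which an earlier description of these data found dominant in other cells and in a female or a larval form, summed to 7623 scaled CPM in the female members and 2628 and 2017 in the larval ones. Of this group, 6 were called higher (54.55%, against 13.0% of all genes) and 4 lower (36.4%, against 10.4%). In free RNA it summed to 94350, 41080 and 49400 CPM. Taking each library's own form, the unscaled level in the members was 7.09% of that in free RNA in the female library and 6.87% and 4.35% in the larval ones. Of the 1896 higher calls, 1424 stood above female free RNA, and of the 1517 lower calls, 981 stood above larval free RNA in both larval libraries. With free RNA subtracted at these shares, 1977 genes were higher and 1450 lower, and 3094 of the 3413 calls were made again in the same direction, while 15 were made in the opposite one.

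The members were a mix of MIOX levels, and the mix differed. In the female library 36.2% of members had 2000 to 4000 CPM of MIOX, 36.0% had 4000 to 10000 and 27.8% had at least 10000. In the larval libraries the top range held 52.8% and 53.6%. Within each library some genes followed MIOX. RGN, regucalcin, stood at 1605, 1138 and 306 scaled CPM from the low to the high range in the female library, at 1549, 896 and 97.8 in larval library 1 and at 1756, 834 and 87.9 in larval library 2. CRYL1, an enzyme of the pathway that takes up the product of MIOX, went the other way, from 41.0 to 109 and 254 in the female library, from 109 to 299 and 1091 in larval library 1 and from 85.3 to 405 and 1207 in larval library 2. RGN and CRYL1 were chosen after their values were seen.

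The calls were made on these same cells, so their values by range are a description. The high range has no upper end, so it does not match the libraries on MIOX. The upper quartile of MIOX over all members was 11179 CPM in the female library and 29953 and 27535 in larval libraries 1 and 2. Of the 1896 genes called higher, 1890 lay above both larval libraries in the low range, 1877 in the middle range and 1892 in the high range, and 1580, 1478 and 1443 lay at least 2-fold above both. Of the 1517 called lower, 1433, 1436 and 1501 lay below both, and 1123, 1162 and 1253 at least 2-fold below. In the high range alone the test called 1736 genes higher and 1200 lower. KMO stood at 376, 408 and 449 scaled CPM across the ranges in the female library, and BLVRA at 3.29, 2.54 and 3.48. SLC41A2 went from 6330 to 4407 and 1385 across the same ranges and stayed far above both larval libraries in each. In the high range its female level lay below that of female free RNA, 1451 CPM. SLC47A1 climbed with MIOX in the female members, from 3.51 to 11.5 and 55.5, and stayed far below larval library 1, which had 181, 232 and 370.

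**Figure D5:**
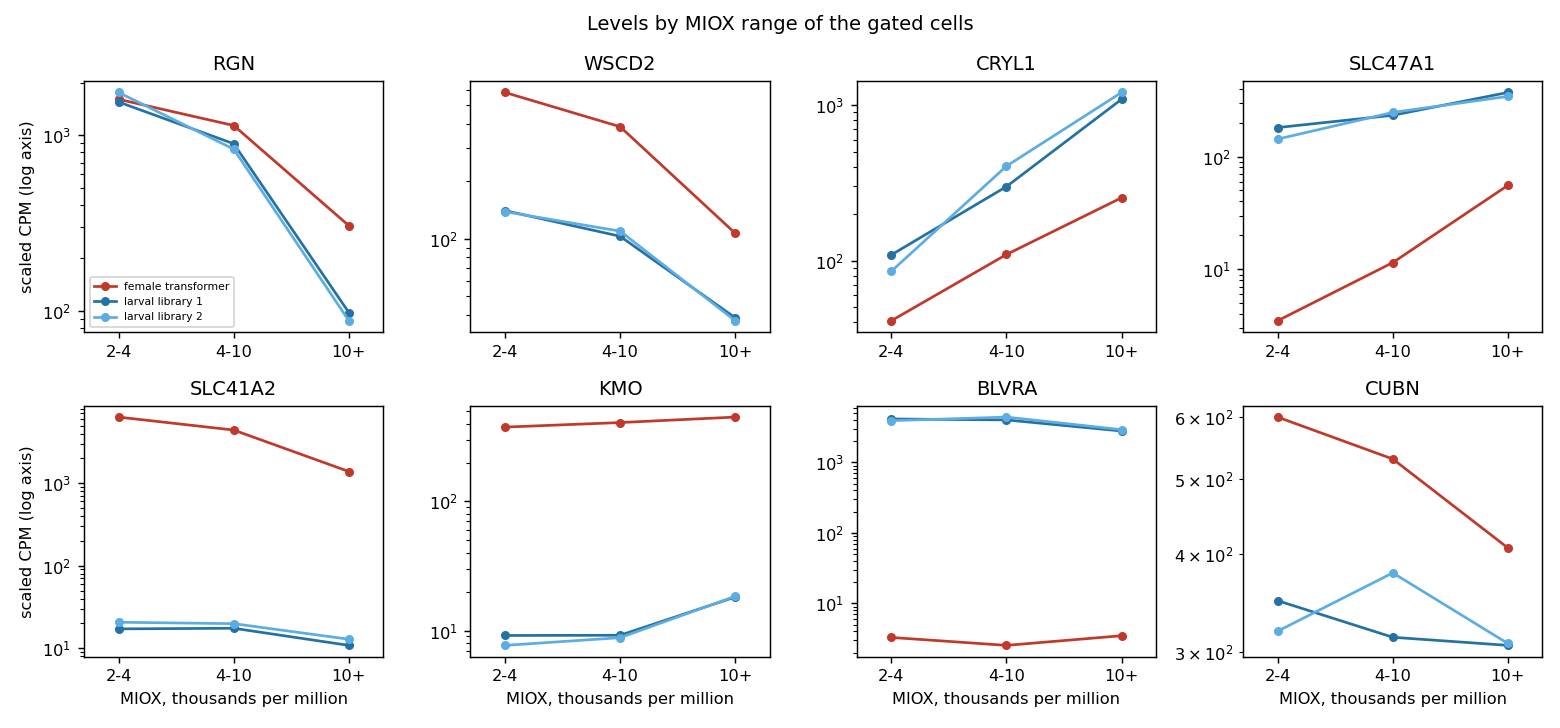
Scaled CPM on log axes of 8 genes in members grouped by their CPM of MIOX (horizontal axis, divided by 1000 in the labels), with a line for each library. RGN and WSCD2 decline and CRYL1 climbs with MIOX in all 3 libraries. SLC41A2, KMO, BLVRA and SLC47A1 keep the female and larval lines apart at every range.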

How the data were processed

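Single-cell 3′ RNA was measured in 4 libraries of sea lamprey gonads. The deposited matrix of each library holds whole-number counts per gene and barcode, per the file headers, unfiltered and with no normalization by the authors seen in the values. Whether a count is a molecule or a read, and the aligner, build and annotation, are not given in the sources used here. Of 21967 features, 13987 carry a LOC number. A gene table of assembly UKy_Petmar_22M1.pri1.0, searched by gene ID, held 11871 of them and gave 678 a symbol. It was used for names and neighbours only. A set of 24 features named by a number alone held 3.51% of the counts of members in the female library and 9.00% and 9.90% in larval libraries 1 and 2, and was left out of sums and tests, but not of the totals that chose the members.

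Counts of members were summed per library and fitted with edgeR 4.0.16 in R 4.3.3 (filterByExpr, TMM factors, a two-sided quasi-likelihood test in its robust form, Benjamini-Hochberg adjustment over all 14625 genes). MIOX was not tested. Each SE is approximate, being the absolute log2 fold change over the root of F. On simulated counts for 14003 genes the test recovered 100% of genes changed by log2 2 and 99% of those changed by log2 1.5, with 5 false calls. These figures hold for the simulated spread only, which was the same for the female and larval libraries. Changed genes were drawn from those with a mean over 5 CPM, so the figures do not cover calls at lower levels. Shares of barcodes with a count were taken after thinning each barcode to the count minimum, with 4000 other barcodes drawn per library. A comparison of a single gene with free RNA used unscaled CPM. Sums over a group of markers were scaled CPM in the members and unscaled CPM in free RNA. Members and gene lists were chosen with earlier results of these data known, and several lists were matched by symbol prefix. In other lists many symbols sought were not in the feature list. It held 8 of 20 for endocytosis, 7 of 20 for tubule transcription factors and 9 of 31 for glucose production and glycolysis. For apoptosis it held 10 of 24, and for hormone receptors and enzymes 7 of 26. The named genes are the 10 largest rises and falls with a symbol and the 5 with a LOC number alone (called, at least 20 scaled CPM in the higher group and above free RNA), the tubule markers, and up to 2 calls in each direction per list. Strand was not stated, so genes that overlap on opposite strands cannot be told apart. Alternatives were another scaling, no scaling beyond totals, DESeq2 1.42.0, no filter on low counts, doubled minimums, mitochondrial and doublet filters (Scrublet in scanpy 1.11.5) and a rule on CUBN and LRP2 in place of MIOX, with 3 more added after seeing the data. Further planned ones left out the 13 genes over 1% of counts, or took the mean of per-cell CPM, with no test. With that mean, the log2 fold change of 28 of the 82 named genes moved by more than its SE. The SE does not cover this choice. Some members of the gene lists are counted but not reported here by name.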

Additional observations from a re-analysis of the deposited data

How the results depend on the processing

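With library totals alone the genes called higher were 1256, and with a rule of at least 5 CUBN and LRP2 counts and 1000 CPM in place of MIOX those called lower were 937. Every other setting gave between 1354 and 1977 higher and between 1191 and 2210 lower. In fold alone, with no test, 1965 genes lay at least 2-fold above and 1424 at least 2-fold below both larval libraries. Against a single larval library, with the other left out, these counts were 2561 to 2595 and 1779 to 1788. The share of members moved with each rule. It was 7.65%, 2.61% and 2.73% (female, larval library 1, larval library 2) with the MIOX rule doubled, 17.3%, 4.51% and 4.27% with the count minimum doubled, and 1.89%, 0.697% and 0.583% under the CUBN and LRP2 rule. Of the settings added after seeing the data, at least 10000 CPM of MIOX gave 3.34%, 1.86% and 1.92%, and 300 CPM of CUBN and LRP2 gave 10.4%, 3.07% and 3.04%. The female share stayed the highest in each. Of the barcodes chosen by the CUBN and LRP2 rule, 59.4%, 35.8% and 47.5% were also members.

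Of the 82 named genes, NR3C2, which is not called, changed sign, to −0.11 with library totals alone and −0.29 under the CUBN and LRP2 rule. No other did in the settings where it was tested. Under the CUBN and LRP2 rule, among members with at least 10000 CPM of MIOX and with free RNA subtracted, some named genes were not tested. They are counted neither as kept nor as lost. Calls were lost as follows, and the cause was not tested. With library totals alone these were LHX1, ATP1B1, UQCRC2, PCDH15, PSMD7 and DIABLO. Among members with at least 10000 CPM of MIOX, they were LRP2, LHX1, GRHL2, ATP1B1, UQCRC2, ND4, ND2, RPL6, LAMA2, COL6A1 and PSMC3IP. With DESeq2 they were PLK1 and PSMC3IP (adjusted p 0.27 and 0.16), with the MIOX rule doubled LHX1 (1.02) and PSMC3IP (−0.94), and with the doublet filter COL6A1 (−0.79). APOC3 had an edgeR adjusted p of 0.0524 at a log2 fold change of 4.38 under the lower CUBN and LRP2 rule, where COL6A1 and PSMC3IP were lost too. Under the stricter one ATP1B1, RPL23A (0.92), PCDH15 and COL6A1 were lost. Calls were gained there for AMN (lower, −1.49) and SLC22A6 (higher, 1.92). SLC22A6 was also called under the lower rule (1.53), and KCNJ1 was called lower with library totals alone (−1.13). No paired analysis was possible because the female group has 1 library and shares 1 replicate number with the larvae.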

Other observations

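The members were graded within each library. Of 2563 genes with at least 50 scaled CPM in some MIOX range, MIOX left out, 26 stood at least 2-fold higher in the low range (2000 to 4000 CPM of MIOX) than in the high range (at least 10000) in all 3 libraries, and 27 at least 2-fold lower. WSCD2 stood at 585, 387 and 107 scaled CPM from the low to the high range in the female library and at 141, 103 and 38.6 in larval library 1. LOC116956497 stood at 556, 505 and 192 in the female library and at 3454, 2863 and 476 in larval library 1. LOC116939342 climbed from 20.7 to 88.7 and 304 in the female library and from 3.19 to 3.87 and 33.0 in larval library 1. These genes were chosen after their values were seen, all cells of a library share its preparation, and with 1 female library the values are a description with no test.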
